A study of Mus musculus with 2 samples.

Results

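The genes Itga1, Kcnab1, Cacna1d, Chrm3, Epb41l2, Nlgn1, Celf4, Kif6 and Fry were examined because unique PDGFRα peaks far outnumber unique CD137 peaks at them. A peak was taken as a member when its centre lay in the gene's span or within 5 kb of it. The 9 genes held 61 of the 22485 listed peaks, 58 of 8002 from the PDGFRα list and 3 of 14483 from the CD137 list. The genes were chosen by these peak numbers, which are therefore a description and carry no test. Place class, width and the peaks of the flanks were not used in the choice. Genes that hold many peaks were mostly long, so place class and distance to a start can still follow in part from the choice. The spacing of peaks within a gene and the runs of PDGFRα peaks without a CD137 peak follow in part from it and are likewise a description.

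Accessible chromatin was measured by ATAC-seq, which cuts and tags open DNA with a transposase, in adipose progenitors of C57BL/6 mice. The 2 groups were CD137+ cells and PDGFRα+ (CD140+) cells, isolated with magnetic beads from SAT or VAT, taken through an adipogenic cocktail and then given the glucocorticoid dexamethasone at 1 µM. Both groups received dexamethasone, so nothing here measures the drug, and the depot behind each group, the sex and the age of the animals are not in the labels. Each group was 1 library without replicates, represented by a list of the peaks that the authors call unique to it, and the labels' extraction text speaks of embryonic cells, which does not match the stated tissue.

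Each peak comes with its position, the ID of an Ensembl gene and a class of place (intron, exon, up5k, down5k or intergenic), without height, score or reads. The depth of both libraries is therefore unknown. Chromatin outside the listed peaks can have been open in both groups or closed in both. The CD137 list was the longer one, so that PDGFRα peaks made up 35.6% of all peaks. Coordinates are mm10 as the lists give them, and no source used here says whether starts count from 0 or 1. Intervals below are 95% Wilson intervals for shares and Newcombe intervals for differences of shares, and they cover counting error only. Pdgfra had no unique peak in either list. Tnfrsf9, the gene of CD137, had 0 CD137 peaks and 1 PDGFRα peak, so the lists give no check of the sorted populations by their own marker genes.

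As background, the 9 genes serve different parts of the cell. Itga1 encodes the integrin α1 chain, which pairs with β1 as a collagen receptor, and Epb41l2 encodes protein 4.1G, which ties membrane proteins to the spectrin and actin cytoskeleton. Chrm3 encodes the M3 muscarinic acetylcholine receptor, Cacna1d the pore-forming subunit of the L-type calcium channel Cav1.3, and Kcnab1 a cytoplasmic β subunit of voltage-gated potassium channels. Nlgn1 encodes neuroligin 1, an adhesion protein best known at excitatory synapses. Celf4 encodes an RNA-binding protein, Kif6 a kinesin motor protein, and Fry the large Furry protein, which takes part in cell polarity and in the control of NDR kinases. Distal peaks of accessibility inside introns often mark enhancers, and an enhancer inside a gene can act on that gene or on another one.

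One member peak lay next to an annotated transcription start, and the sequences at the starts of that gene are shown for this reason. RefSeq (GRCm38.p6) gave 12 promoter windows for 8 of the 9 genes, each reaching from 250 bases before to 50 bases after a start. Celf4 had no entry, because no window lay on its chromosome, 18. PDGFRα peaks on chromosomes without windows are left out of the shares that follow, in the comparison sets too. Of the 49 PDGFRα peaks at the 8 genes, 0 overlapped a promoter window of any gene, which allows a share of up to 6.12% when a count of 0 is taken as up to 3 counts, and 7.27% by the Wilson interval that the differences below use. In comparison, 3.28% (2.60 to 4.12%) of 2134 PDGFRα peaks at other coding genes of at least 100 kb overlapped one, which differs from the members by -3.28 points (-4.12 to 4.02, an interval that holds 0). The share at all other coding genes on chromosomes with windows was 8.31% of 4450 peaks, a difference of -8.31 points (-9.16 to -1.004). The shortest of the 9 genes has 144 kb, where coding genes with a peak had a median of 50.4 kb. The other genes of at least 100 kb are therefore the closer comparison in length. How far the difference of -8.31 points follows from the choice of genes was not tested. The exonic peak at Cacna1d, 30351783 to 30353337 of chromosome 14, ended 149 bp from the inner start of the gene at 30353486, on the transcribed side of it. The sequences are printed 5′ to 3′ on the minus strand, and CpG dinucleotides are in capitals.

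Cacna1d inner start (chr14:30353437-30353736): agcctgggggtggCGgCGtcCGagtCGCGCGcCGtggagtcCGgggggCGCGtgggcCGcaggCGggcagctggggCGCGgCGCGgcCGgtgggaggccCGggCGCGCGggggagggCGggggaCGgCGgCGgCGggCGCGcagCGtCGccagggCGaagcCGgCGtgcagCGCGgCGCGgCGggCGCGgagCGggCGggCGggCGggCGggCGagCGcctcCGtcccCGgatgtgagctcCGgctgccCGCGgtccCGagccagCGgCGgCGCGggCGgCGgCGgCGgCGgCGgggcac

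Cacna1d outer start (chr14:30491107-30491406): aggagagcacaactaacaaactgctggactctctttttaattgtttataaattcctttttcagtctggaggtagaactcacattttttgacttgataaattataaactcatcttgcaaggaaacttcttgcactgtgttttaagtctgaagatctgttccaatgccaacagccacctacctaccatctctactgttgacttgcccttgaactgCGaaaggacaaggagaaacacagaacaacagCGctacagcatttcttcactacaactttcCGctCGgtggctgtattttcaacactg

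The inner window had 63 CpGs and 87.3% G+C, and the outer one 4 CpGs and 40.3% G+C. The median G+C over 32851 promoter windows was 52.7%. The nearest member peak to the outer start was 30423 bp away. Apart from the peak at the inner Cacna1d start, no PDGFRα peak at the 8 genes came within 1 kb of a listed start of its own gene. The centres of 47 of 49 were more than 10 kb from such a start. Starts of other genes did not enter these distances. The median distance from a peak centre to the nearest listed start of its own gene was 95.5 kb, and the largest was 706 kb, at Nlgn1. At Fry and Epb41l2 the only listed start lay inside the span and not at its 5′ end, so the listing can be incomplete. The first Fry peak was 107 kb from the listed start but 33.9 kb from the 5′ end of the span. The hexamer GGAATG, the core of the TEAD motif, was searched on both strands because the series title names TEAD1. It was found in 1 of the 12 windows, that of Kif6, and in 14.7% of all promoter windows. The sequences of the peaks themselves were not used here.

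**Figure D1:**
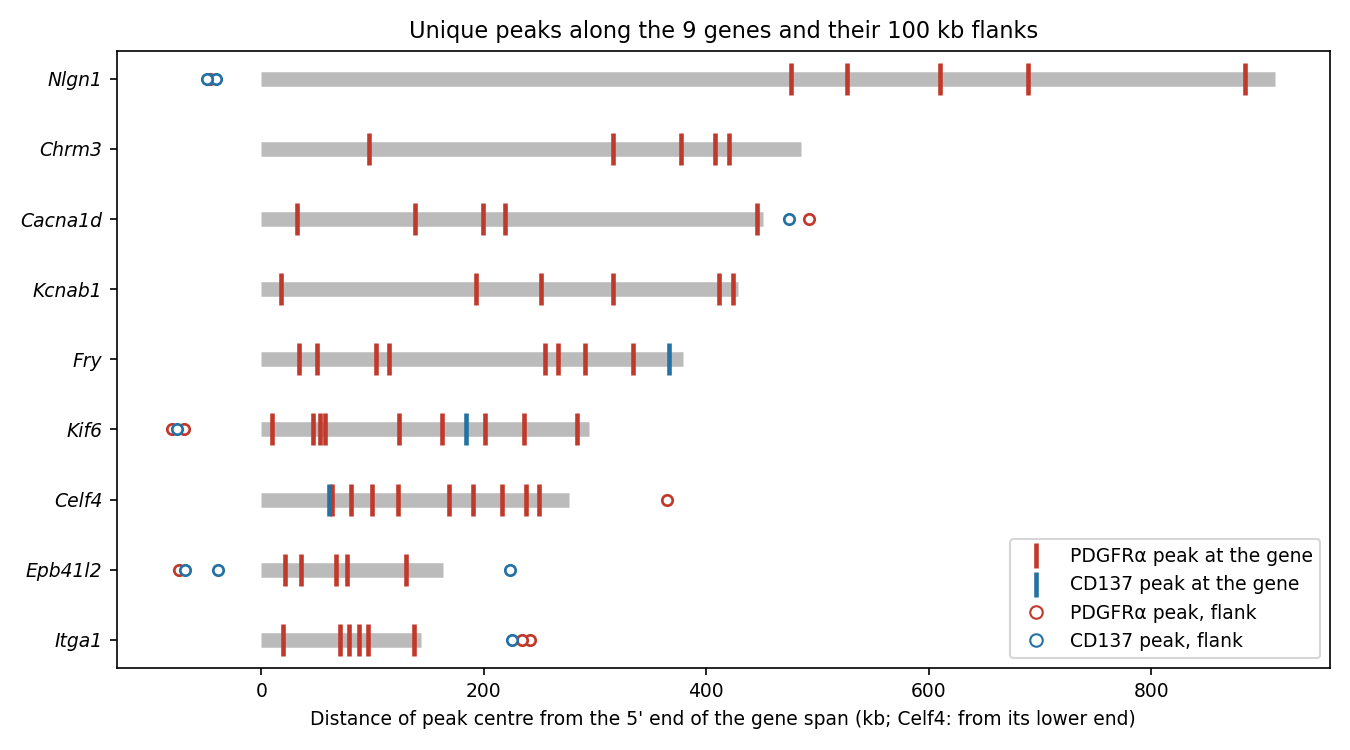
Position of every unique peak at the 9 genes (vertical ticks) and 5 to 100 kb outside them (open circles), by distance in kb from the 5′ end of the gene's span (grey bar), with PDGFRα peaks in red and CD137 peaks in blue. For Celf4, distance is from the lower end of the span. Red ticks run through most spans, blue ticks occur once each in Fry, Kif6 and Celf4, and circles of both colours stand outside the genes.

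The adhesion and cytoskeleton genes Itga1 and Epb41l2 were the shortest of the 9 and had no CD137 peak. Itga1 (ENSMUSG00000042284, chromosome 13, 114958079 to 115101964, 144 kb, minus strand) had 6 PDGFRα peaks. They lay at 114963983 to 114964995 (intron, 1012 bp), 115005682 to 115007223 (exon, 1541 bp) and 115013503 to 115014636 (intron, 1133 bp). The others were at 115022847 to 115023845 (intron, 998 bp), 115030803 to 115032054 (exon, 1251 bp) and 115081648 to 115083188 (intron, 1540 bp). The middle 4 formed a group, with neighbouring centres 7.62 to 9.28 kb apart, and the other two stood towards the ends of the gene. At 3.90 per 100 kb, counted over the span and 5 kb on each side, Itga1 was the most densely covered of the 9 genes.

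Epb41l2 (ENSMUSG00000019978, chromosome 10, 25359782 to 25523519, 164 kb, plus strand) had 5 PDGFRα peaks, all classed intron. Of these, 4 lay at 25380701 to 25381808 (1107 bp), 25395085 to 25396154 (1069 bp), 25425922 to 25428449 (2527 bp) and 25436090 to 25437732 (1642 bp), and the fifth at 25489590 to 25490890 (1300 bp). The peak of 2527 bp was 1 of 3 member peaks of at least 2 kb. The listed start of Epb41l2, at 25408368, fell between the second and the third peak, 12214 bp from the nearer one.

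The signalling and channel genes Chrm3, Cacna1d and Kcnab1 were longer, between 429 and 486 kb, and likewise had no CD137 peak. Chrm3 (ENSMUSG00000046159, chromosome 13, 9875486 to 10361062, minus strand) had 5 intronic PDGFRα peaks, at 9939973 to 9940976 (1003 bp), 9952154 to 9953439 (1285 bp), 9983165 to 9984134 (969 bp), 10043957 to 10044949 (992 bp) and 10263488 to 10264810 (1322 bp). The last of these was the one nearest the start of the gene, 96.7 kb from it, and the other 4 lay in the 3′ part of the span. Chrm3 had no peak of either list in its flanks. Along chromosome 13 its peaks belonged to a run of 9 successive PDGFRα peaks, from 9589707 to 10475360, with no CD137 peak among them.

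Cacna1d (ENSMUSG00000015968, chromosome 14, 30039941 to 30491156, minus strand) had 5 PDGFRα peaks, at 30044777 to 30046270 (down5k, 1493 bp), 30271279 to 30272733 (intron, 1454 bp), 30291690 to 30292736 (intron, 1046 bp), 30351783 to 30353337 (exon, 1554 bp) and 30457372 to 30460733 (intron, 3361 bp). The peak of 3361 bp, whose centre lay 32.1 kb inside the gene and in the lncRNA gene 4831407H17Rik, was the widest of the 58. The down5k peak carries another Ensembl ID, ENSMUSG00000015970, which the lists also give to a CD137 peak inside the neighbouring gene Chdh, so that the authors' annotation counts 4 peaks for Cacna1d. Chdh encodes choline dehydrogenase and overlaps the 3′ end of the Cacna1d span.

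Kcnab1 (chromosome 3, 64949212 to 65378225, plus strand) had 6 intronic PDGFRα peaks. The first 3, at 64966877 to 64967544 (667 bp), 65142040 to 65143310 (1270 bp) and 65200606 to 65201638 (1032 bp), carry the ID ENSMUSG00000102437. The others, at 65264881 to 65265967 (1086 bp), 65359393 to 65361334 (1941 bp) and 65372256 to 65373634 (1378 bp), carry ENSMUSG00000027827. The lists do not pair IDs with symbols, and all peaks under both IDs lay at Kcnab1. The centres of 3 of the 6 peaks also lay in the lncRNA gene A330015K06Rik, which overlaps Kcnab1. The stretch of 175 kb between the first and the second peak held no peak of either list. Within 100 kb of the gene there was none either, and the nearest on the lower side was a PDGFRα peak 527 kb away.

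Nlgn1 (ENSMUSG00000063887, chromosome 3, 25421808 to 26332866, 911 kb, minus strand) was the longest of the 9 and the least densely covered, with 0.543 PDGFRα peaks per 100 kb. Its 5 PDGFRα peaks, all intronic, lay at 25447959 to 25448741 (782 bp), 25642674 to 25643810 (1136 bp), 25722038 to 25723102 (1064 bp), 25805445 to 25806637 (1192 bp) and 25855560 to 25856933 (1373 bp). All 5 were in the 3′ part of the span, at 52.3% of its length from the 5′ end or farther. Both listed starts, at 26331909 and 26153986, were at least 297053 bp from a member peak.

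The RNA-binding protein gene Celf4 and the kinesin gene Kif6 shared the highest number, with 9 PDGFRα peaks and 1 CD137 peak each. At Celf4 (ENSMUSG00000024268, chromosome 18, 25477620 to 25754520, 277 kb) all 9 PDGFRα peaks were intronic. They lay at 25540088 to 25541732 (1644 bp), 25557366 to 25559064 (1698 bp) and 25576371 to 25577344 (973 bp). Farther along were 25599866 to 25601340 (1474 bp), 25645497 to 25646441 (944 bp) and 25667473 to 25668632 (1159 bp), and then 25693605 to 25695062 (1457 bp), 25715139 to 25716114 (975 bp) and 25726520 to 25727487 (967 bp). The gaps between their centres were 11.4 to 45.4 kb, where those at Kif6 were 3.77 to 66.4 kb. The CD137 peak, in an exon at 25537595 to 25538901 (1306 bp), was 1187 bp from the first PDGFRα peak. It stood at the edge of the group, so that the 9 peaks began a run of 12 successive PDGFRα peaks, 469 kb long.

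Kif6 (ENSMUSG00000023999, chromosome 17, 49615098 to 49909847, 295 kb, plus strand) had PDGFRα peaks at 49624451 to 49625450 (exon, 999 bp), 49661192 to 49662157 (intron, 965 bp) and 49667824 to 49668871 (intron, 1047 bp). Farther along were 49671534 to 49672697 (intron, 1163 bp), 49737754 to 49739211 (exon, 1457 bp) and 49776872 to 49777847 (intron, 975 bp). Towards the 3′ end lay 49815944 to 49816924 (up5k, 980 bp), 49850397 to 49852105 (intron, 1708 bp) and 49898559 to 49899516 (down5k, 957 bp). The peaks that begin at 49661192, 49667824 and 49671534 were close neighbours, with centres 6.67 and 3.77 kb apart. The CD137 peak at 49798858 to 49800031 (intron, 1173 bp) was inside the group, with 6 PDGFRα peaks before it and 3 after it. The up5k and down5k peaks carry other IDs, ENSMUSG00000090012 and ENSMUSG00000090227, although their centres lie inside the Kif6 span.

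Fry (ENSMUSG00000056602, chromosome 5, 150118618 to 150497753, 379 kb, plus strand) had 8 PDGFRα peaks and 1 CD137 peak. The PDGFRα peaks upstream of the listed start at 150259930 lay at 150151811 to 150153188 (intron, 1377 bp), 150168361 to 150169365 (intron, 1004 bp), 150221110 to 150222406 (intron, 1296 bp) and 150232906 to 150233863 (intron, 957 bp). Those downstream of it lay at 150373020 to 150373955 (intron, 935 bp), 150384419 to 150385576 (intron, 1157 bp), 150409040 to 150410401 (exon, 1361 bp) and 150451252 to 150453735 (down5k, 2483 bp). The down5k peak, of 2483 bp, carries the ID ENSMUSG00000107262. The CD137 peak at 150484990 to 150486264 (intron, 1274 bp) was the last before the 3′ end of the gene, so the 8 PDGFRα peaks followed each other without interruption over 302 kb.

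Pooled over the 8 genes of known strand, the PDGFRα peaks were spread along the span. Its 4 equal parts, from the 5′ to the 3′ end, held 12, 10, 13 and 14 of 49 peaks. Single genes could be uneven, as at Nlgn1, where all 5 peaks lay at 52.3% of the span or farther. Over all 9 genes, the gaps between neighbouring PDGFRα centres had a median of 36.7 kb, with 15 of 49 gaps under 20 kb. They ranged from 3.77 kb at Kif6 to 226 kb at Cacna1d. All 58 centres lay inside a gene span, and no centre was within 5 kb of another coding gene. The down5k peak at Cacna1d came close, with its centre just beyond 5 kb from Chdh. Its lower edge, at 30044777, was less than 5 kb from the end of Chdh at 30040468. The 58 peaks covered 74.6 kb in all, or 2.11% of the summed spans. Pooled, the 9 genes had 1.60 PDGFRα and 0.0828 CD137 peaks per 100 kb, where 2420 other coding genes of at least 100 kb had 0.352 and 0.686. The first pair of values follows from how the genes were chosen.

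Between the member peaks and those at other long genes, the interval of the difference held 0 for each place class. These intervals are wide and take peaks as independent, although each member gene gave several peaks. They therefore cannot show that the place classes are alike. Of 58 PDGFRα peaks, 48 were classed intron (82.8%, 71.1 to 90.4%), 6 exon, 3 down5k, 1 up5k and 0 intergenic. At other coding genes of at least 100 kb, 74.5% of 2229 PDGFRα peaks were intronic. The difference was 8.29 points (-3.51 to 16.1). The exon shares were 10.3% and 10.5% (difference -0.153 points, -5.83 to 10.4) and the up5k shares 1.72% and 7.04% (difference -5.32 points, -7.14 to 2.16). Over all other PDGFRα peaks of the list, including those far from genes, 33.2% were intronic.

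The median of the 58 PDGFRα peaks was 1158 bp (interquartile range 998 to 1456 bp, range 667 to 3361 bp), against 1237 bp (1039 to 1455 bp) for the 7944 other PDGFRα peaks. Peaks under 1 kb made up 27.6% of the members and 20.1% of the others, a difference of 7.48 points (-2.39 to 20.1, an interval that holds 0). The 3 peaks of at least 2 kb stood at Cacna1d, Epb41l2 and Fry, one in each gene, and were 5.17% of the members, while 5.52% of the whole PDGFRα list were as wide. The narrowest peak, of 667 bp, was the first of Kcnab1. The 3 CD137 peaks measured 1173, 1274 and 1306 bp and fell among the PDGFRα widths.

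**Figure D2:**
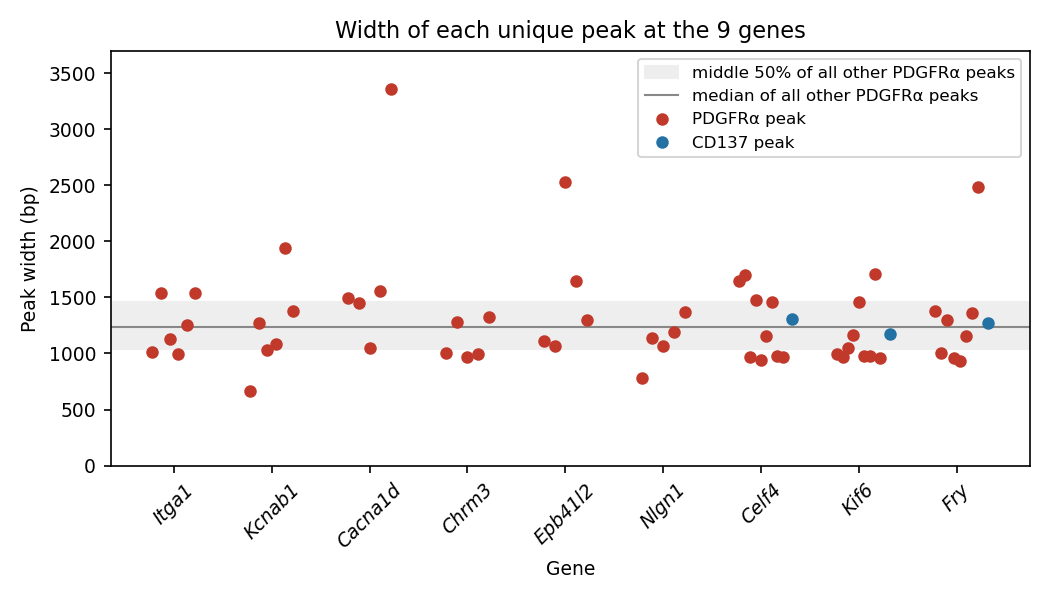
Width in bp of each unique peak at the 9 genes, PDGFRα peaks in red and CD137 peaks in blue, in order of position within a gene. The grey band spans the middle 50% of the 7944 other PDGFRα peaks (1039 to 1455 bp) and the line their median of 1237 bp; most member peaks lie in or near the band, and the widest, of 3361 bp, is at Cacna1d.

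In the flanks of the genes both lists had the same number of peaks. From 5 to 100 kb outside the 9 spans lay 8 PDGFRα and 8 CD137 peaks, a PDGFRα share of 50% (28.0 to 72.0%). In the same flanks of other coding genes of at least 100 kb the share was 38.2% of 4555 peaks (36.8 to 39.6%), and the difference of 11.8 points has an interval that includes 0 (-10.2 to 33.8). With 16 peaks only a large excess would be detectable. The share was 33.3% within 50 kb of the genes (2 PDGFRα and 4 CD137 peaks) and 54.3% within 200 kb (19 and 16). It was 72.7% (8 and 3) when the CD137 list was limited to its 8002 widest peaks. Both lists then have 8002 peaks, so the 72.7% cannot be set beside the 38.2% above. Chrm3, Kcnab1 and Fry had no peak of either list in their flanks, Celf4 had 1 PDGFRα peak, and the other 5 genes had peaks of both lists there.

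**Figure D3:**
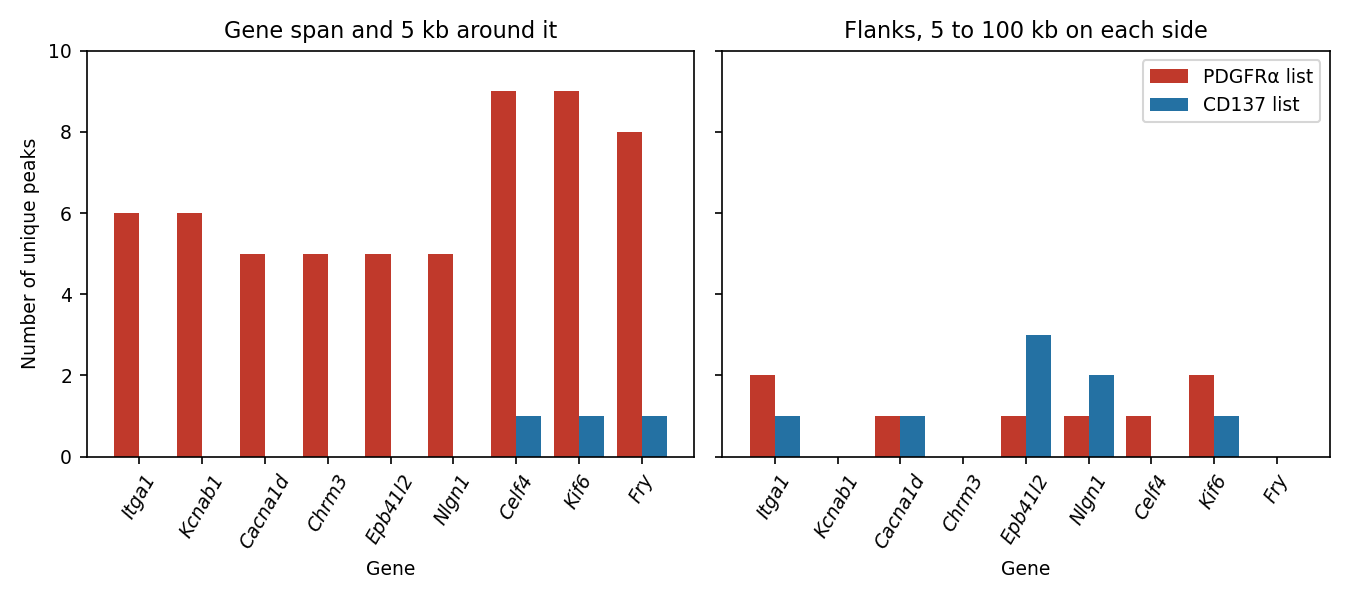
Number of unique peaks of each list (red PDGFRα, blue CD137) at each of the 9 genes, on the left in the span and 5 kb around it and on the right 5 to 100 kb outside it on both sides. On the left the PDGFRα bars reach 5 to 9 and the CD137 bars 0 or 1, and on the right both lists sum to 8.

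The neighbour of Itga1 on the lower side is Itga2, the gene of the integrin α2 chain, another collagen receptor. It had 2 PDGFRα and 2 CD137 peaks over its whole length, of which 2 PDGFRα peaks (114859990 to 114860981, intron, 991 bp, and 114867044 to 114868457, exon, 1413 bp) and 1 CD137 peak (114875866 to 114876888, intron, 1022 bp) were within 100 kb of Itga1. On the other side the nearest peak of either list was 901 kb away. Daam2, a formin gene of Wnt signalling 50.6 kb from Kif6, had 3 PDGFRα peaks and 1 CD137 peak. In its part of the Kif6 flank, PDGFRα peaks at 49533633 to 49535884 (2251 bp) and 49545190 to 49546025 (835 bp) stood on either side of a CD137 peak at 49539004 to 49539961 (957 bp), all in introns. At Rftn1, which lies 83.4 kb beyond the other end of Kif6, there were 2 peaks of each list, all farther than 100 kb from Kif6. So both long neighbours of Kif6 held peaks of both lists.

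The flanks of Epb41l2 held 3 CD137 peaks and 1 PDGFRα peak. The kinase-anchoring gene Akap7, which had 3 CD137 peaks and 1 PDGFRα peak in all, held the PDGFRα peak at 25284942 to 25285951 (1009 bp) and a CD137 peak at 25290491 to 25291973 (1482 bp), both intronic. The remaining CD137 peaks lay between the genes at 25320143 to 25321070 (intergenic, 927 bp) and in the lncRNA gene Gm29571 at 25583268 to 25584379 (intron, 1111 bp). Beside Cacna1d there was a CD137 peak in an intron of Chdh (30016216 to 30017298, 1082 bp) and a PDGFRα peak at 29997823 to 29998771 (down5k, 948 bp), within 5 kb of both Actr8 and the interleukin 17 receptor gene Il17rb.

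Upstream of Nlgn1, 3 peaks of alternating lists lay close together at or near the pseudogene Gm4855. They were a CD137 peak at 26373147 to 26374427 (intergenic, 1280 bp), a PDGFRα peak at 26377929 to 26379107 (up5k, 1178 bp) and a CD137 peak at 26380782 to 26382196 (exon, 1414 bp). They were 40.9 to 48.6 kb from the gene. The flank peak of Celf4, a PDGFRα peak at 25841681 to 25843119 (intergenic, 1438 bp), lay 87.9 kb above the gene in the lncRNA gene Gm33228. On its lower side AW554918, 10.3 kb away, had 1 peak of each list, both farther than 100 kb from Celf4.

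The paralogs of the 9 genes were set beside them. Counted as genes with at least 4 PDGFRα peaks and at least 3 times as many PDGFRα as CD137 peaks, 39 of 6619 coding genes with a peak stood out (0.589%), and 36 of 1975 among those of at least 100 kb (1.82%). All 9 genes meet this rule, as their choice implies. At least 5 PDGFRα peaks without a CD137 peak were found at 9 coding genes (0.136%), 6 of them among the genes described here. The group set beside Kif6 was 6 other kinesin genes taken as next to it in kind, counted here with the paralogs. Of 52 paralogs in 9 gene families, 29 had a peak, where 30.2% of all 21887 coding genes had one. The rule was met by 0 of the 29. At the share of 0.589% above, 29 genes are too few to tell 0 from that background. Together they had 30 PDGFRα and 49 CD137 peaks, with more PDGFRα peaks at 8 genes, more CD137 peaks at 16 and equal numbers at 5. Their PDGFRα share of 38.0% (28.1 to 49.0%) had an interval that holds the 35.6% of all peaks. With the CD137 list limited to its 8002 widest peaks, the paralogs had 30 PDGFRα and 28 CD137 peaks. In 5 of the 9 families the paralogs had peaks of both lists.

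Among the 17 other integrin α chain genes, 11 had a peak, where 30.2% of all coding genes had one. They held 12 PDGFRα and 11 CD137 peaks in all. Itga9 and Itga11, the latter encoding another collagen-binding chain, had 3 PDGFRα and 2 CD137 peaks each, and Itgav had 1 of each. Of the calcium channel genes, Cacna1c, which encodes the Cav1.2 channel of heart and smooth muscle, had 4 PDGFRα and 7 CD137 peaks, and Cacna1a, the Cav2.1 gene, had 1 and 6. Cacna1e had 0 and 2, and Cacna1h and Cacna1i had 1 and 1 each. Cacna1c is a gene of 610 kb, longer than Cacna1d with 451 kb and its 5 and 0 peaks.

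In the CELF family, Celf2 (857 kb) had 5 PDGFRα and 4 CD137 peaks and Celf1 had 1 and 2, beside 9 and 1 at Celf4. The protein 4.1 genes Epb41l3, Epb41l4b and Epb41l5 had 2 and 3, 0 and 2, and 1 and 1 PDGFRα and CD137 peaks. Fryl, the paralog of Fry, had 0 PDGFRα and 3 CD137 peaks over 237 kb, against 8 and 1 at Fry. Kif5c, of the kinesin group set beside Kif6, had 0 and 2. Among the other muscarinic receptor genes Chrm1 had 1 and 0 and Chrm2 had 0 and 1. The other potassium channel β subunit genes and the other neuroligin genes listed had no unique peak.

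The genes with the most similar counts were also long. Besides the 9 genes, 30 others met the rule, 27 of them of at least 100 kb. By PDGFRα minus CD137 peak number, the measure of likeness over the 2 libraries, Nav2 came first with 9 and 1 peaks (neuron navigator 2, 651 kb). Rbfox1, a regulator of splicing, had 9 and 3, and the cyclic nucleotide phosphodiesterase gene Pde10a had 7 and 1. Shroom3, which binds actin, had 6 and 1. Aff2, Nkain3 and Xkr4 had 5 and 0, as did Cacna1d, Chrm3, Epb41l2 and Nlgn1, and Nav2 equals Celf4 and Kif6, so the 9 genes do not separate from these others by number. Just below came Bach2, Farp1 and Plce1 with 6 and 2 each, among 12 genes with a difference of 4. The opposite imbalance, at least 4 CD137 peaks and at least 3 times as many as PDGFRα peaks, was met by 265 genes (4%), and the CD137 list was also the longer one.

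**Figure D4:**
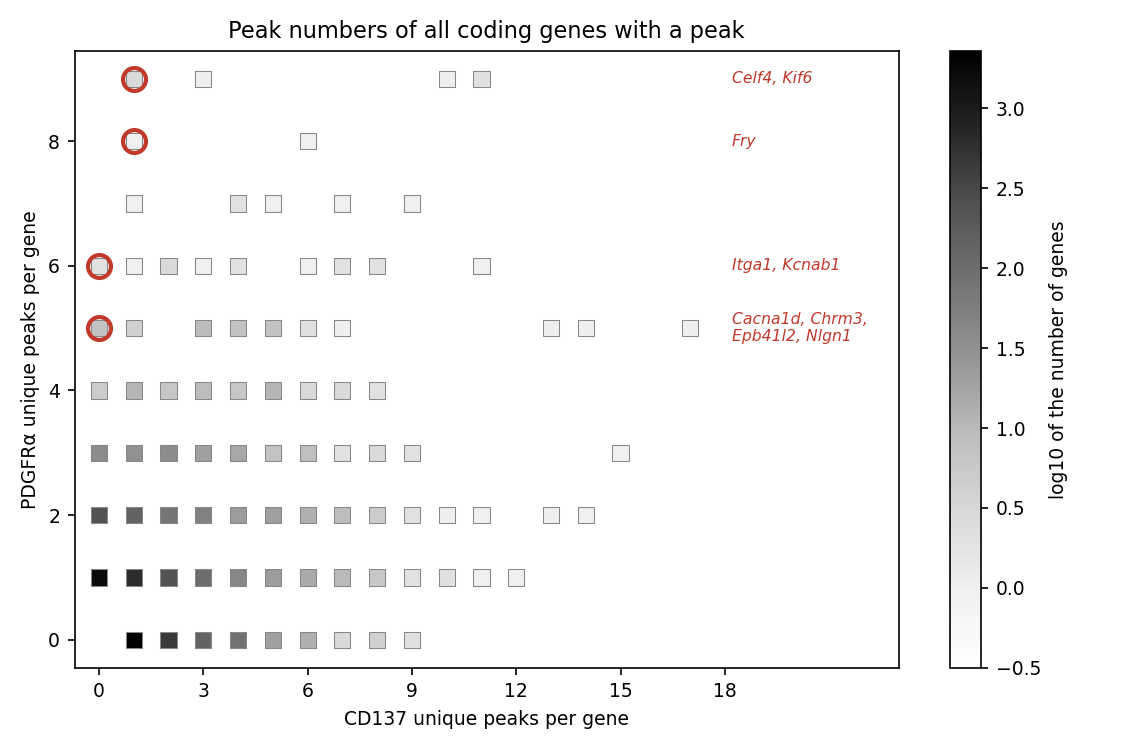
Number of unique peaks of the PDGFRα list (vertical axis) and the CD137 list (horizontal axis) for the 6619 coding genes with a peak, where each square is a pair of counts shaded by the log10 of the number of genes with it. Red circles mark the counts of the 9 genes, which hold 5 to 9 PDGFRα peaks and 0 or 1 CD137 peak; Nav2, Aff2, Nkain3 and Xkr4 share circled squares with them.

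Markers of other cells that adipose tissue holds were counted beside the 30.2% of all 21887 coding genes that had a unique peak. Smooth muscle and mural cell genes, of which 4 of 8 had a peak, had 4 PDGFRα peaks (Myh11 2, Rgs5 1 and Notch3 1) and 1 CD137 peak (Cspg4), and Acta2, Tagln, Cnn1 and Des had none. Endothelial genes, of which 2 of 6 had a peak, had 5 PDGFRα peaks (Erg 3 and Kdr 2) and 0 CD137 peaks, and Pecam1, Cdh5, Tie1 and Emcn had none. Among nerve and Schwann cell genes, of which 2 of 6 had a peak, S100b and Ngfr had 1 CD137 peak and 0 PDGFRα peaks each, and Sox10 and Erbb3 had none. The part of other cell types in the counts at the 9 genes was not tested.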

How the data were processed

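ATAC-seq peaks of 2 libraries, 1 per group, were analysed. The deposited files list, per the file headers, chromosome, start, end, Ensembl gene ID and place class, and no measured height or score. Per the submitters' processing notes, build mm10 and CASAVA 1.8 are named without a role. The aligner, peak caller, threshold, transposase shift and the rule for calling a peak unique were not given in the sources used here. Depth is unknown, and greater depth or a laxer threshold can lengthen a list.

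Peaks were given to genes by their centre, in or within 5 kb of the span in a RefSeq table of GRCm38.p6 (mm10). Of intron-class peaks, 97.4% (CD137) and 97.2% (PDGFRα) had their centre in a RefSeq gene of any type. When positions were moved by 3 Mb these shares were 49.7% and 50.1%. A peak can count for several overlapping genes. Simulated centres were placed inside the same windows that the assignment uses, and all 764 peaks at 200 genes were returned to their gene. This checks the code only and not the assignment of real peaks. The members and lists were chosen with earlier results of these data known. Named genes were the 9 members, coding genes with a peak within 100 kb, paralogs with at least 2 peaks and the 10 most alike genes; other paralogs and marker genes were named after their counts were seen. Some genes of the nerve marker list are not reported here. With 1 library per group no p-value is given. Alternatives varied the windows, the peak sets, the assignment and merging. The work was done in Python 3.11.15 (pandas 2.3.3, numpy 2.4.6, matplotlib 3.10.9, scipy 1.17.1).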

Additional observations from a re-analysis of the deposited data

How the results depend on the processing

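No paired analysis was possible because each group had a single library, which also prevents leaving one out. PDGFRα peaks outnumbered CD137 peaks at each of the 9 genes under all 7 alternatives run for their counts. The genes were chosen by these same peaks, so this outcome follows in large part from the choice and is no support for it. Among the wider 50% of each list the PDGFRα and CD137 numbers were 1 and 0 at Nlgn1. They were 2 and 0 at both Chrm3 and Kif6. The sum of 58 PDGFRα peaks was 54 by the authors' Ensembl IDs and fell to 26 among the wider 50% of each list. In that wider 50%, 3 of the 9 genes had at least 4 PDGFRα peaks and at least 3 times as many as CD137 peaks. The share of all coding genes that did so there is not given here. Keeping 50% of the peaks lowers such a count by itself. The 3 CD137 peaks became 7 within 50 kb of the genes. The flank share of 50% was 72.7% (8 PDGFRα and 3 CD137 peaks) when the CD137 list was limited to its 8002 widest peaks. It was 33.3% (2 and 4) within 50 kb and 54.3% (19 and 16) within 200 kb. The paralogs' 30 PDGFRα and 49 CD137 peaks became 58 and 82 within 50 kb, and the CD137 number was 28 among the widest 8002. The median gap between neighbouring centres was 32.3 kb over both lists and 36.7 kb over PDGFRα peaks. Intron share and median width had no informative alternative, because all 58 centres lie inside the spans. Place classes from exon positions were planned and not run, because no exon annotation was used here. Depth is unknown and was not equalised.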
